A study of Mus musculus with 2 samples.

Results

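*Ctla2a* was described in 2 mouse lung sections with small cell lung cancer, measured by Xenium In Situ, which images individual transcripts of a fixed gene panel in tissue and assigns them to segmented cells. It is 1 of the 479 genes of the panel. Its level was read in 3 classes of cells, each chosen by a minimum number of transcripts of other genes in the cell: endothelial cells (*Pecam1*, *Sox17* and *Gpihbp1* summing to 3 or more), T cells (*Cd3d* and *Cd3e*, 2 or more) and tumor cells (*Chga*, *Chgb*, *Scg5*, *Snap25* and *Celf3*, 4 or more), and for T and tumor cells also where the cell had 0 transcripts of the endothelial genes. The genes of a gate are high in its cells by construction, and *Ctla2a* is in none of the gates. The RPR2 section came from a mouse with conditional (lox) alleles of *Rb1*, *Trp53* and *Rbl2* deleted in the lung by adenoviral Cre, given into the trachea at 10 weeks of age, and intact *Cracd*. The CRPR2 section came from the same model with *Cracd* deleted as well, in the germline according to the study's methods, so that vessels and lymphocytes lack it too, while the Cre virus, driven by the CMV promoter, was not restricted to one cell type. Both stood on a C57BL/6 background, mice of both sexes were used in the study, and the sections lay in 1 tissue block on 1 slide. There was 1 section per genotype, so genotype and section cannot be told apart, no difference between genotypes had a replicate check, no test was made, and each interval below is an exact 95% interval that covers counting error only.

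*Ctla2a* (cytotoxic T lymphocyte-associated protein 2 alpha) encodes a small secreted protein that resembles the propeptide of cysteine cathepsins and inhibits such proteases. It was originally described in activated mouse T cells and mast cells, and later in other tissues. In the lung, a dense capillary bed surrounds the alveoli, so that endothelial cells lie within a few micrometers of nearly every other cell, and a segmented cell in a thick section can hold transcripts of its neighbor.

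The gene (ENSMUSG00000044258) lies on the minus strand of mouse chromosome 13 at chr13:60934155-60936625 in GRCm38, with 5 coding exons and 411 coding bases. A near copy, *Ctla2b*, lies on the same strand 36707 bases away at chr13:60895350-60897447. It is not on the panel and was not analysed here. The coding sequence of *Ctla2b* has 339 bases. Aligned over 411 columns, the 2 coding sequences were identical in 326 (79.3%). Columns where *Ctla2b* has a gap count as differing in this percent. Coding exons 3 and 4 of *Ctla2a* are shown with their counterparts in *Ctla2b*. They were kept for having 40 or more bases and a counterpart of equal length that aligned without gaps. They have 3 and 6 differing bases of 123, given in capitals.
Ctla2a chr13:60935547-60935669: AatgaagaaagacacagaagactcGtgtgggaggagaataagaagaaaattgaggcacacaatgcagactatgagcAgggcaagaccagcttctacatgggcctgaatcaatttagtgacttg
Ctla2b chr13:60896238-60896360: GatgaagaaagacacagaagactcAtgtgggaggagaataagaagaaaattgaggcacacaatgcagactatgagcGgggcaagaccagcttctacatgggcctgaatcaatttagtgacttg
Ctla2a chr13:60935330-60935452: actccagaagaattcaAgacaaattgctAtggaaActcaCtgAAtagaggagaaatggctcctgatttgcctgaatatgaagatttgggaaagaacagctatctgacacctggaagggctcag
Ctla2b chr13:60896021-60896143: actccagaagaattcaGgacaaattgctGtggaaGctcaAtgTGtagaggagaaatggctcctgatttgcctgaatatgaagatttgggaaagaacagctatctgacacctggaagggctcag
Of the 1334 windows of 40 bases in the *Ctla2a* transcript, 138 (10.3%) also stood letter for letter in an annotated *Ctla2b* transcript. Of the 372 such windows in its coding sequence, 132 did. The positions of the Xenium probes are not given in the sources used here, so whether the counts below include *Ctla2b* transcripts was not tested.

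In RPR2, 16313950 gene transcripts fell in 154818 segmented cells, with a median of 100 per cell. In CRPR2, 37348565 fell in 342845, with a median of 101. The analysis kept cells with 20 or more transcripts, which dropped 1.23% and 0.652%. Levels are counts per 1e6 gene transcripts (CPM), summed over the cells of a class. No negative control probe exceeded 9.93 CPM in the first section or 8.43 CPM in the second. The sections shared 8 cell barcodes. Check markers outside the gates followed the class names in part. *Cd8a* stood at 7056 and 6262 CPM in T cells without endothelial transcripts against 97.8 and 76.4 CPM in endothelial cells, and *Cplx2*, a synaptic vesicle fusion gene of the tumor check list, at 27905 and 31222 CPM in tumor cells without endothelial transcripts. Of the 7 endothelial check genes on the panel, 6 were higher in endothelial than in tumor cells, and *Vwf* was not: in tumor cells without endothelial transcripts it stood at 172% and 149% of its endothelial level.

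Endothelial cells had the highest *Ctla2a* level of the 14 classes gated in each section. In RPR2, 39655 endothelial cells had 15777 CPM (15666 to 15889), and 74.0% of them held at least 1 *Ctla2a* transcript. In CRPR2, 26559 endothelial cells had 14534 CPM (14408 to 14661), and 73.7% held at least 1. Per cell, this was 1.93 *Ctla2a* transcripts in RPR2 and 1.92 in CRPR2, and the share of cells with 5 or more was 9.96% and 9.95%. The log2 ratio of CRPR2 over RPR2 was -0.12 (-0.13 to -0.10) in CPM and -0.0086 in transcripts per cell. The lower CPM of CRPR2 was not seen per cell. Of the 304 genes with 100 CPM or more in endothelial cells of either section, 32.2% differed 2-fold or more between the sections, and *Ctla2a* did not. Tumor transcripts in the endothelial gate were higher in CRPR2, where the CPM of *Ctla2a* was lower: there *Cplx2* had 566 CPM in RPR2 cells and 2684 CPM in CRPR2 cells. Their part in the difference was not tested.

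*Ctla2a* climbed with the number of endothelial gate transcripts in a cell. Over all cells of RPR2, its level was 1249 CPM in cells with 0 such transcripts, 5650 CPM with 1, 11831 CPM with 3 and 19698 CPM with 10 or more. Over all cells of CRPR2, it was 461 CPM with 0, 3493 CPM with 1, 10717 CPM with 3 and 18819.5 CPM with 10 or more. Each step up the scale was a step up in *Ctla2a* in both sections.

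**Figure D1:**
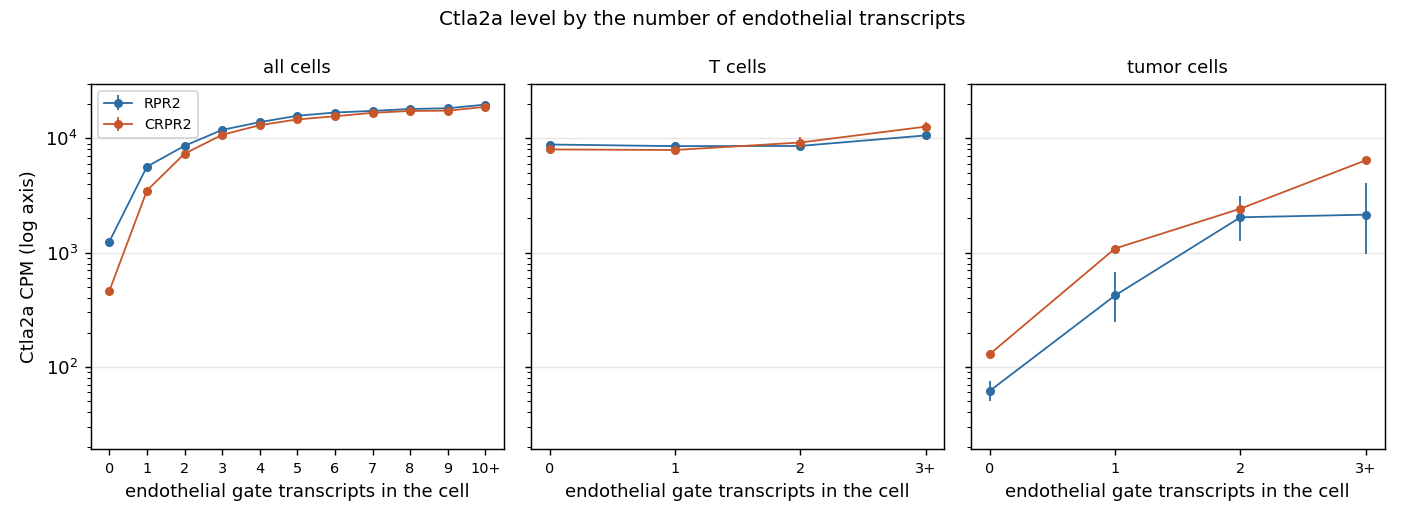
*Ctla2a* CPM (log axis) against the number of *Pecam1*, *Sox17* and *Gpihbp1* transcripts in a cell, for all cells, T cells and tumor cells of the RPR2 and CRPR2 sections; bars are exact 95% counting intervals. The level runs from 1249 and 461 CPM to 19698 and 18819.5 CPM over all cells. In T cells it stays between 7896 and 9180 CPM up to 2 transcripts and is 10590 and 12632.5 CPM at 3 or more. In tumor cells it climbs from 61.8 and 129.5 CPM.

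Within the endothelial gate, cells with 2 or more transcripts of another vessel gene were set against cells with 0. *Eng*, an endothelial co-receptor of the TGF-beta family, gave a log2 ratio of 0.77 in RPR2 and 0.85 in CRPR2. *Clec14a*, an endothelial lectin-like membrane protein, gave 0.60 and 0.52. *Tie1*, an orphan receptor of the angiopoietin system, gave 0.48 and 0.47, and *Kdr*, the main VEGF receptor of endothelium, gave 0.37 and 0.40. Cells richer in each of these held more *Ctla2a* in both sections, with intervals clear of 0. For each of these genes, tumor gate transcripts were higher in the cells with 0 of it, in both sections. For *Eng* they stood at 502 against 147 CPM in RPR2 and 8094 against 1422 CPM in CRPR2. For *Kdr* they stood at 225 against 173 CPM and 2839 against 2413 CPM. Endothelial gate transcripts were higher in the richer cells for *Eng*, *Clec14a* and *Tie1* in both sections, and for *Kdr* in CRPR2 only. For *Eng* they stood at 47824 against 41470 CPM in RPR2 and 42419.5 against 36844 CPM in CRPR2. The richer cells were also deeper for each gene, with medians for *Eng* of 124 against 92 and 133 against 100 transcripts. The part of these transcripts and of depth in the ratios was not tested. The general capillary list, of which *Plvap* and *Gpihbp1* were on the panel, gave 0.27 and 0.34. The arterial list, with *Hey1* and *Sox17*, gave 0.38 and 0.17. For the venous list, of which *Vwf* was the only gene on the panel, it was -0.25 and -0.03. *Vwf* was high in tumor cells as well, so it did not mark veins apart from tumor. Tumor gate transcripts in its cells stood at 182 against 183 CPM in RPR2 and 3033 against 1968 CPM in CRPR2. *Gpihbp1* and *Sox17* are gate genes, so cells picked by the capillary and arterial lists hold more gate transcripts by construction. For the arterial list these stood at 54055 against 40627 CPM in RPR2 and 48056.5 against 36271 CPM in CRPR2. The values of these lists are therefore not a result about vessel type. *Plvap* alone gave 0.25 and 0.46, and *Hey1* alone 0.26 and 0.11. Their richer cells also held more gate transcripts, whose part was not tested. None of the 4 listed aerocyte genes was on the panel.

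The genes of the lymphatic list differed in direction. Over the list as a whole the log2 ratio was 0.12 and 0.16, with higher *Ctla2a* in cells with *Lyve1* and lower *Ctla2a* in cells with *Prox1* or *Mmrn1*. *Prox1* is the transcription factor that sets lymphatic identity and *Mmrn1* is a lymphatic extracellular matrix protein. In RPR2, 211 endothelial cells with 2 or more *Prox1* transcripts had 6251 CPM of *Ctla2a* against 15890.4 CPM in cells with 0, a log2 ratio of -1.35 (-1.56 to -1.14). In CRPR2, 557 such cells had 5013 CPM against 14982 CPM, -1.58 (-1.71 to -1.45). Tumor gate transcripts were higher in the *Prox1* cells, at 2449 against 159 CPM in RPR2 and 14937 against 1649 CPM in CRPR2, so *Prox1* alone did not mark lymphatic vessels apart from tumor. With *Mmrn1*, where tumor gate transcripts were not higher (165 against 193 CPM, and 336 against 2677 CPM), the log2 ratio was -0.73 (-0.83 to -0.62) and -1.07 (-1.18 to -0.97). Cells with at least 1 transcript of each gene, a set chosen after these values were seen, gave -1.10 in 359 cells and -1.35 in 545 cells. Endothelial gate transcripts were lower in each of these sets. In the *Mmrn1* cells they stood at 33311 against 47211 CPM in RPR2 and 28257 against 42009 CPM in CRPR2. The part of these gate transcripts was not tested. Most cells counted under the list had 2 or more transcripts of *Lyve1*, a hyaluronan receptor that is not confined to lymphatic vessels: 7741 of its 8102 RPR2 cells and 6767 of its 7396 CRPR2 cells. *Lyve1* gave 0.14 and 0.26. Endothelial cells with *Mki67* or *Top2a*, genes of dividing cells, made up 2.25% of the gate in RPR2 and 17.9% in CRPR2 and had a log2 ratio of -0.25 and -0.37. Tumor gate transcripts were higher in these cells too (1271 against 162 CPM, and 7779.7 against 1271 CPM), and their part was not tested.

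**Figure D2:**
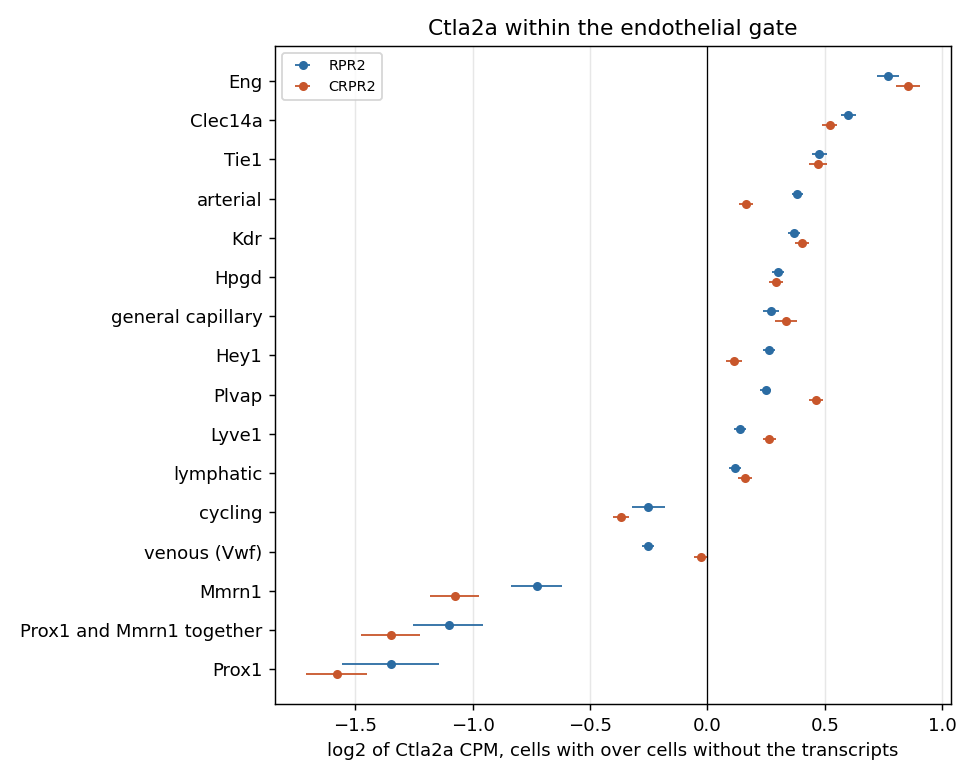
Log2 ratio of *Ctla2a* CPM in endothelial cells with over cells without transcripts of the named gene or list (2 or more against 0; 1 or more for cycling and for *Prox1* with *Mmrn1*), by section, with exact 95% counting intervals. *Eng* lies at 0.77 and 0.85, and *Prox1* at -1.35 and -1.58.

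T cells held *Ctla2a* too. In RPR2, 2793 T cells had 9033 CPM (8670 to 9408), and 45.9% held *Ctla2a*. In CRPR2, 3949 T cells had 8489.6 CPM (8200 to 8787), and 44.7% held it. Endothelial gate transcripts were present in 53.5% of the RPR2 T cells and 36.3% of the CRPR2 T cells, so the level was read again in those with 0. In 1298 such cells of RPR2 it was 8820.4 CPM (8273 to 9395), with *Ctla2a* in 41.1%, and in 2516 of CRPR2 it was 7987 CPM (7620.3 to 8366), with *Ctla2a* in 40.7%. Leaving out cells with endothelial gate transcripts therefore left most of the T cell level in place. The gate genes were uneven in all T cells. *Pecam1* stood at 33.4% (RPR2) and 21.1% (CRPR2) of its endothelial level, *Gpihbp1* at 17.3% and 10.4%, and *Sox17* at 11.2% and 5.96%. Whether these transcripts came from the T cells or from neighbors was not tested. The level with 0, 1 and 2 endothelial transcripts was 8820.4, 8535 and 8569.9 CPM in RPR2, and 7987, 7896 and 9180 CPM in CRPR2. With 3 or more, where the cells also pass the endothelial gate, it was higher. There it was 10590 CPM (9676 to 11567) in RPR2 and 12632.5 CPM (11481 to 13868) in CRPR2. The endothelial level was 1.79-fold the T cell level without endothelial transcripts in RPR2 and 1.82-fold in CRPR2, with log2 values of 0.84 and 0.86. With gates 1 transcript looser (a single Cd3 transcript) these log2 values were 1.52 and 1.34.

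Between the sections, T cells differed little: the log2 ratio of CRPR2 over RPR2 was -0.09 (-0.17 to -0.01) in all T cells and -0.14 (-0.26 to -0.03) in those without endothelial transcripts. In transcripts per cell both intervals spanned 0, at -0.02 (-0.10 to 0.06) and -0.07 (-0.18 to 0.05). Of 336 genes with 100 CPM or more in T cells of either section, 32.4% differed 2-fold or more, and *Ctla2a* did not. In cells without endothelial transcripts and with under 4 tumor gate transcripts, *Ctla2a* followed the Cd3 count. It was 1404 CPM in RPR2 cells with 0 Cd3 transcripts, 6818 CPM with 2 and 11402 CPM with 6 or more. In CRPR2 it was 792 CPM with 0, 7123 CPM with 2 and 9810.1 CPM with 6 or more.

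Other vessel genes did not keep pace with *Ctla2a* in T cells without endothelial transcripts. *Ctla2a* stood there at 55.9% of its endothelial level in RPR2 (52.4 to 59.5) and 55.0% in CRPR2 (52.4 to 57.6). *Tie1* stood at 5.84% and 5.24%, *Eng* at 12.4% and 10.1%, *Clec14a* at 6.75% and 3.53%, and *Kdr* at 16.1% and 7.80%. In each section all 7 check genes were under 20% of their endothelial level. Relative to *Tie1*, *Ctla2a* was 9.57-fold over in RPR2 T cells and 10.5-fold over in CRPR2 T cells, against 1.18-fold and 1.29-fold in tumor cells. These folds depend on the gene chosen. *Tie1* was the lowest of the 7 in RPR2 T cells, while *Hpgd* stood at 17.3% and 12.1%. In tumor cells *Clec14a*, *Kdr*, *Plvap*, *Hpgd* and *Vwf* stood above *Ctla2a* in both sections, with *Clec14a* at 1.47% and 2.58% against 0.392% and 0.891%. Of the other gated classes, cytotoxic cells without T transcripts (*Prf1* or *Gzmb*, as in natural killer cells) stood at 60.8% of the endothelial level in 71 RPR2 cells and 38.6% in 90 CRPR2 cells, with *Tie1* at 11.5% and 17.2% and a ratio of the percentages of 5.29 and 2.24. In the remaining 10 classes the ratio to *Tie1* ranged from 1.46 to 2.22 for RPR2 and from 1.39 to 2.91, in B cells, for CRPR2. As a percent of the endothelial level, *Eng* and *Kdr* each stood above *Ctla2a* in some of these classes and below it in others. This range therefore holds for *Tie1* only.

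**Figure D3:**
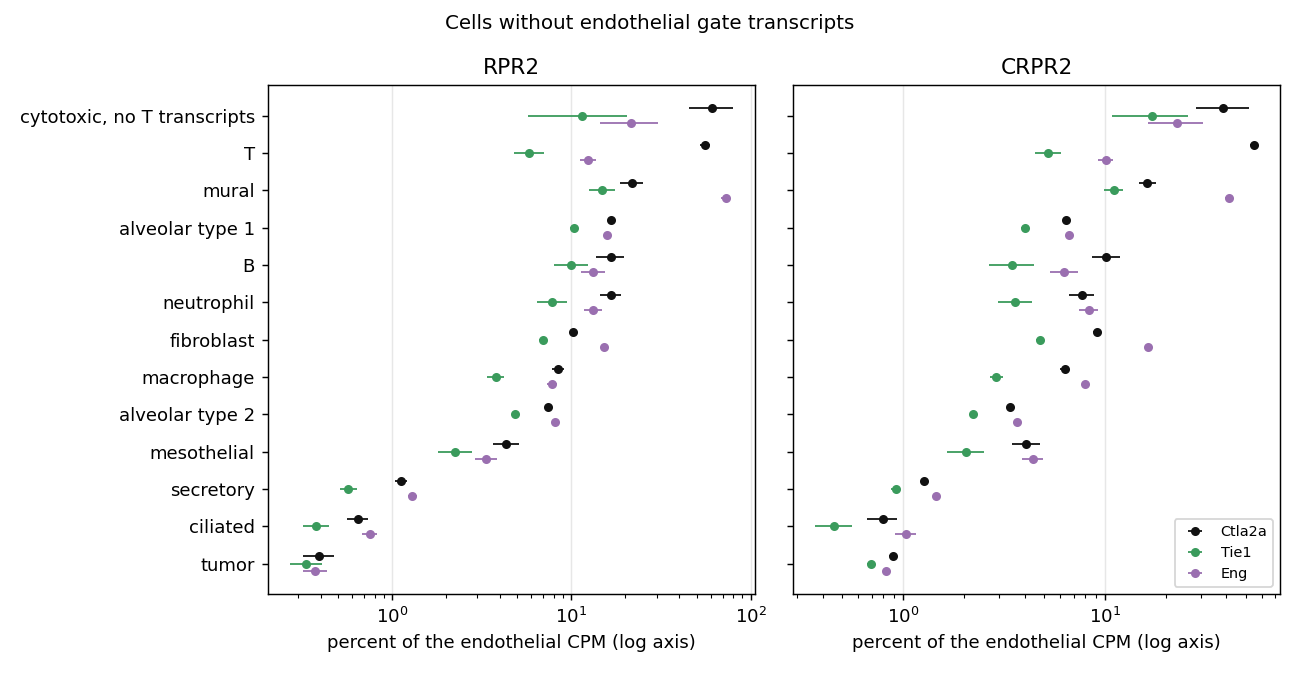
*Ctla2a*, *Tie1* and *Eng* in cells without endothelial gate transcripts, as a percent of each gene's CPM in endothelial cells (log axis), for 13 classes of each section, with exact 95% counting intervals on the class's count. In T cells *Ctla2a* stands at 55.9% and 55.0% with *Tie1* at 5.84% and 5.24%, and in tumor cells the 3 genes lie together at 0.333% to 0.392% (RPR2) and 0.692% to 0.891% (CRPR2). The other endothelial check genes, not drawn, stood higher in tumor cells.

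Among T cells without endothelial transcripts, those with *Cd8a*, the co-receptor of cytotoxic T cells, had the most *Ctla2a*. In RPR2, 220 cells with *Cd8a* had 14444 CPM and 1078 without had 7625 CPM, a log2 ratio of 0.92 (0.72 to 1.12). In CRPR2, 413 cells with *Cd8a* had 14863 CPM and 2103 without had 6591 CPM, 1.17 (1.03 to 1.32). After each cell was thinned to 50 transcripts, *Ctla2a* was found in 38.3% against 28.2% of cells in RPR2 and in 47.3% against 25.8% in CRPR2. By the *Cd8a* count, cells with 0, 1, 2 and 3 or more transcripts had 7625, 7927, 14406 and 16155 CPM in RPR2, and 6591, 11218, 16326 and 15859.5 CPM in CRPR2. T cells with 2 or more *Cd8a* transcripts thus stood near the endothelial level of their section in CPM, but not per cell. Those with 2 and with 3 or more held 1.04 and 1.53 *Ctla2a* transcripts per cell in RPR2, and 1.47 and 1.53 in CRPR2. Endothelial cells held 1.93 in RPR2 and 1.92 in CRPR2. The share with *Cd8a* was alike (16.9% and 16.4%), and in all T cells it was 18.6% and 17.4%. These are shares of T cells over the whole section, not within tumors. The study reported far fewer CD8+ T cells in CRPR2 than in RPR2 tumors, from single-cell data and immunostaining. That is another set of cells, so the shares here do not bear on it.

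**Figure D4:**
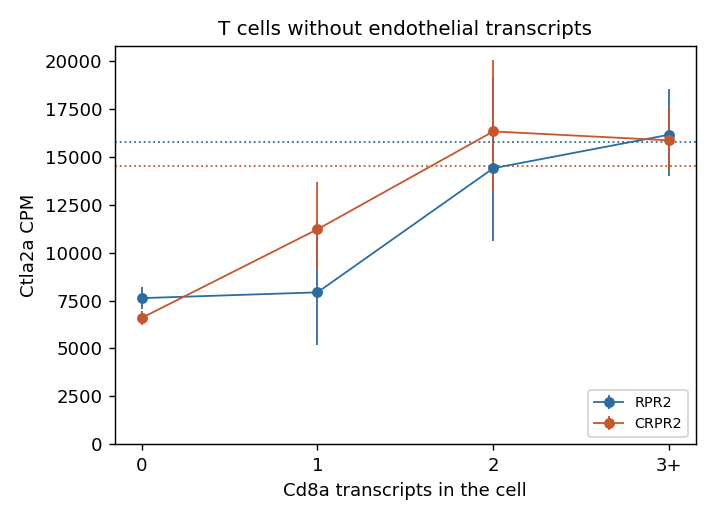
*Ctla2a* CPM in T cells without endothelial transcripts against the number of *Cd8a* transcripts in the cell, with exact 95% counting intervals; dotted lines mark the endothelial level of each section (15777 and 14534 CPM). The level goes from 7625 and 6591 CPM at 0 to 16155 and 15859.5 CPM at 3 or more.

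Of the cytotoxic list, *Prf1* and *Gzmb*, the pore-forming and granule protease genes of killer cells, were on the panel. Cells with either had a log2 ratio of 0.58 in RPR2 and 0.63 in CRPR2 over cells with neither. For *Prf1* alone it was 0.67 and 0.78, while for *Gzmb* alone the interval spanned 0 in both sections. Among T cells with *Cd8a*, the interval for *Prf1* spanned 0 as well (0.33 and 0.27). In its single-cell data, the study named *Ctla2a* among immunoregulatory genes higher in CRPR2 than in RPR2 cells of a T cell cluster with high *Foxp3*. The genes of regulatory T cells were therefore read too. *Ctla4*, an inhibitory receptor high on regulatory T cells, and *Tff1* were the only listed ones on the panel. Cells with *Ctla4* were 14.6% of T cells without endothelial transcripts in RPR2 and 31.8% in CRPR2. These cells had 8379 CPM of *Ctla2a* (7044 to 9893) in RPR2 and 6944 CPM (6352 to 7577) in CRPR2, so a higher CRPR2 level was not seen. *Foxp3* was not on the panel, so they are not the cluster of the study. Over cells without *Ctla4*, cells with it had a log2 ratio of -0.09 (-0.36 to 0.17) for RPR2 and -0.29 (-0.44 to -0.14) for CRPR2. Restricted to cells without *Cd8a*, the values were 0.05 (-0.25 to 0.34) and -0.29 (-0.46 to -0.11). In CRPR2 the cells with *Ctla4* had the lower level, and in RPR2 the direction was within counting error.

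Cells with any of the checkpoint receptors, taken as a list, had a log2 ratio of 0.05 (-0.18 to 0.27) for RPR2 and -0.11 (-0.25 to 0.03) for CRPR2, and the single receptors gave mixed values. Over cells without *Lag3*, those with it had a log2 ratio of -0.66 (-1.42 to 0.01) in 29 RPR2 cells and -0.31 (-0.56 to -0.07) in 251 CRPR2 cells. Without *Cd8a* it was -0.92 (-1.93 to -0.08) in 24 cells and -0.97 (-1.36 to -0.60) in 191 cells, and with *Cd8a* it was 0.04 (-0.30 to 0.37) in 60 CRPR2 cells. *Havcr2* gave -0.28 (-0.75 to 0.16) and -0.02 (-0.26 to 0.22). Cells with *Pdcd1* (PD-1) had 0.26 (0.02 to 0.51) in RPR2 and 0.03 (-0.12 to 0.18) in CRPR2. Those among T cells with *Cd8a* had 0.59 (0.20 to 0.97) for RPR2 and 0.50 (0.25 to 0.75) for CRPR2, and those without *Cd8a* -0.12 (-0.46 to 0.21) and -0.31 (-0.50 to -0.12). *Ctss*, the only cysteine cathepsin or cystatin of the list on the panel, gave -0.13 and -0.12 with intervals spanning 0. The split of T cells by *Cd8a* before these genes was added after the values without it were seen.

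Tumor cells had *Ctla2a* at a low level, which was higher in the cells with endothelial transcripts. In RPR2, 13782 tumor cells had 88.4 CPM (74.6 to 104), from 145 *Ctla2a* transcripts, and 0.943% held any. In CRPR2, 160674 tumor cells had 231 CPM (224 to 238), from 4320 transcripts, and 2.20% held any. In the 13422 and 152629 tumor cells without endothelial transcripts it was 61.8 CPM (50.2 to 75.3) and 129.5 CPM (124 to 135), in 0.678% and 1.37% of cells. In the 2715 and 17024 tumor cells that also lacked transcripts of the endothelial check genes, it was 47.6 CPM (24.6 to 83.1) and 110 CPM (94.6 to 128). The 360 and 8045 tumor cells with endothelial transcripts had 858 and 1790 CPM. They were 2.61% of the tumor cells in RPR2 and 5.01% of those in CRPR2. The endothelial level was 255-fold the level in tumor cells without endothelial transcripts in RPR2 (log2 interval 7.71 to 8.30) and 112-fold in CRPR2 (log2 6.81, 6.75 to 6.87).

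Ciliated cells, which are not known as a source of *Ctla2a*, were set beside the tumor cells. In ciliated cells without endothelial transcripts the level was 102 CPM (88.3 to 116) for RPR2 and 115 CPM (96.7 to 136) for CRPR2. At a depth of 50 transcripts, *Ctla2a* was found in 0.304% of RPR2 tumor cells (0.216 to 0.415) and 0.438% of ciliated cells (0.344 to 0.549), and in 0.630% of CRPR2 tumor cells (0.590 to 0.671) and 0.542% of ciliated cells (0.398 to 0.720). Median depths were 110 and 107 transcripts in tumor cells and 110 and 122 in ciliated cells. The tumor level was below that of ciliated cells in RPR2 and not distinguishable from it in CRPR2. Between the sections, the ciliated level had a log2 ratio of CRPR2 over RPR2 of 0.18 (-0.14 to 0.50). Whether these transcripts came from the tumor cells themselves was not tested. The tumor level was above the negative control probes, which reached at most 12.2 and 10.8 CPM in tumor cells.

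Between the sections, the log2 ratio of CRPR2 over RPR2 in tumor cells was 1.39 (1.15 to 1.64), and 1.07 (0.78 to 1.38) without endothelial transcripts. Of 288 genes with 100 CPM or more in tumor cells of either section, 14.2% differed 2-fold or more. *Ctla2a* entered that count only through its CRPR2 level, so its place in it is not a result. Of the 7 endothelial check genes, *Tie1* and *Eng* were higher in CRPR2 by about as much. In tumor cells without endothelial gate transcripts, *Tie1* was 59.9 CPM for RPR2 and 115 CPM for CRPR2, and *Eng* 101 and 190 CPM. *Kdr* (674 and 559.5 CPM) and *Hpgd* (340 and 306 CPM) were lower in CRPR2, and *Plvap* (596 and 710 CPM), *Clec14a* (302 and 341 CPM) and *Vwf* (17983 and 22497 CPM) were higher there by less. As a percent of the endothelial level, *Ctla2a* stood at 0.392% and 0.891%, *Tie1* at 0.333% and 0.692%, and *Eng* at 0.373% and 0.826%. The other check genes stood higher in both sections. Leaving out cells with *Tie1* or *Eng* transcripts as well gave a log2 ratio of CRPR2 over RPR2 of 0.97 (0.65 to 1.30). Leaving out those with *Kdr*, *Tie1*, *Clec14a*, *Plvap* or *Vwf* transcripts instead gave 1.12 (0.36 to 1.98). Both settings were chosen after seeing the data. The planned setting without transcripts of any of the 7 check genes gave 1.22 (0.37 to 2.20).

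Tumor cells with *Ctla2a* more often held transcripts of other classes. In RPR2, 30.0% of the 130 tumor cells with *Ctla2a* had endothelial gate transcripts, against 2.35% of those without it. In CRPR2 it was 40.7% of 3537 against 4.20%. Among tumor cells without endothelial transcripts, *Cd3d* or *Cd3e* was found in 3.30% of the cells with *Ctla2a* against 0.315% in RPR2, and 1.76% against 0.240% in CRPR2. *Ptprc* or *Laptm5*, genes of blood cells, was found in 17.6% against 6.52%, and 11.7% against 5.76%. Cells with *Ctla2a* were also deeper, with a median of 135 against 110 transcripts and 127 against 107. The part of depth and of these transcripts was not tested. The level climbed with the endothelial count, from 61.8 CPM at 0 to 422 CPM at 1 and 2037 CPM at 2 in RPR2, and from 129.5 to 1086 and 2423 CPM in CRPR2. It did not climb with the tumor count: in cells without endothelial or Cd3 transcripts it was 1476 CPM in RPR2 cells with 0 tumor gate transcripts and 45.1 CPM in those with 15 or more, and 1164 and 109 CPM in CRPR2.

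Across the 14 classes, with endothelial transcripts absent from all but the endothelial class, the order of levels in RPR2 after endothelial cells was cytotoxic cells without T transcripts (9590.1 CPM, 71 cells) and T cells, which were not distinguishable, then mural cells (3430.5 CPM), a tie of alveolar type 1 (2632 CPM), B (2618 CPM) and neutrophil cells (2615 CPM), fibroblasts (1617 CPM), macrophages (1328 CPM), alveolar type 2 cells (1164 CPM), mesothelial (681 CPM), secretory (177 CPM), ciliated and tumor cells. In CRPR2, T cells came before cytotoxic cells (5604 CPM, 90 cells), mural cells had 2359 CPM, B cells (1471 CPM) and fibroblasts (1322 CPM) were not distinguishable, and neutrophils had 1117 CPM. Alveolar type 1 cells (935 CPM) and macrophages (919 CPM) were not distinguishable, nor were tumor and ciliated cells at the low end. Endothelial, T and cytotoxic cells had the highest levels in both sections, and secretory, ciliated and tumor cells the lowest. Without endothelial transcripts, alveolar type 1 cells had a log2 ratio of CRPR2 over RPR2 of -1.49 (-1.57 to -1.41), alveolar type 2 cells -1.24 (-1.30 to -1.18) and neutrophils -1.23 (-1.51 to -0.94). *Tie1*, as a percent of its endothelial level, was lower in the alveolar classes as well, going from 10.3% to 4.03% in alveolar type 1 and from 4.85% to 2.22% in alveolar type 2 cells. These are levels of gates that share cells, not of pure cell types. In CRPR2 the alveolar type 2, secretory and tumor gates took 31.7%, 26.8% and 47.2% of all cells. Overlaps of the other classes with each other and with the tumor gate were not counted, and their part in these values was not tested.

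**Figure D5:**
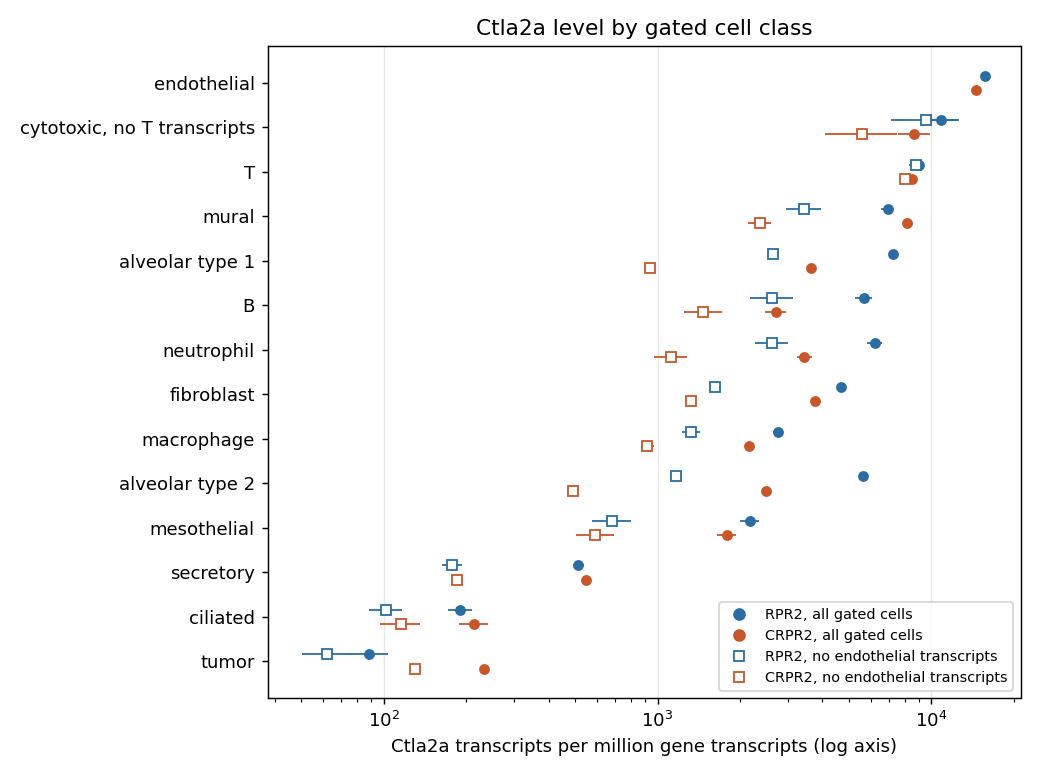
*Ctla2a* CPM (log axis) in 14 gated classes of the RPR2 and CRPR2 sections; filled circles are all gated cells, open squares those without endothelial transcripts, and bars exact 95% counting intervals. Endothelial cells lie at 15777 and 14534 CPM, and tumor cells without endothelial transcripts at 61.8 and 129.5 CPM.

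Over whole sections, *Ctla2a* had 6749 CPM for RPR2 and 2275 CPM for CRPR2, a log2 ratio of -1.57. Endothelial cells held 29.8% of all transcripts and 69.7% of the *Ctla2a* transcripts in RPR2, and 9.41% and 60.1% in CRPR2. Tumor cells outside the other gates held 10.0% of all transcripts in RPR2 and 49.7% in CRPR2, with 0.119% and 4.23% of the *Ctla2a* transcripts. With the class shares of CRPR2 and the class levels of RPR2, the section would have had 2640.1 CPM, a log2 difference of -1.35 from RPR2. With the shares of RPR2 and the levels of CRPR2, it would have had 5890.4 CPM, a difference of -0.20. The groups were endothelial cells, T cells outside that gate, tumor cells outside both, and other cells with and without endothelial gate transcripts. A difference in endothelial transcripts per cell therefore counts in part as a difference in shares. In this split, exchanging the shares moved the level more than exchanging the levels, and the cause was not tested.

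Over 28 points (14 classes in 2 sections), the genes of the panel whose log2(CPM + 10) was most like that of *Ctla2a* by Spearman's rho were *Pecam1* (0.94, Pearson's r 0.98), *Gzmb* (0.91, r 0.58), *Tie1* (0.90, r 0.97), *Eng* (0.90, r 0.97) and *Plvap* (0.90, r 0.91). The points of a section share its segmentation and cells that pass several gates, *Pecam1* is an endothelial gate gene and *Gzmb* gates the cytotoxic class, so these values are a description.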

How the data were processed

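Xenium In Situ counts of 2 sections (RPR2 and CRPR2, 1 each) were used. The authors deposited, per section, a matrix of whole-number transcript counts per feature and segmented cell, without normalization, after image processing on the Xenium platform and segmentation by nuclear expansion. The submitters' processing notes name Seurat 4.4.0. The genome build behind the probes was not given in the sources used here. The matrices list 541 features, of which the 479 genes were used and the 20 negative control probes served as background. Cell positions and images were not used here, no doublet caller was run, and a cell that passed several gates was kept in each.

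From these counts, cells with 20 or more gene transcripts were gated and counts were summed over each class. Exact 95% intervals (Poisson for CPM, Clopper-Pearson for shares, conditional for ratios) were computed. They cover counting error only. The ratio interval was tried on simulated Poisson counts, which cannot show how it fares on counts that spread more. To compare shares across depths, cells were thinned to 50 transcripts (seed 1). After thinning, the variance of *Ctla2a* over its mean was 1.25 (RPR2) and 1.27 (CRPR2) in endothelial cells. In T cells without endothelial transcripts it was 1.55 and 1.46. Values above 1 mean that intervals are too narrow for the spread between cells, in endothelial cells and more so in T cells. Other classes could exceed 1 as well, such as B cells without endothelial transcripts at 1.26 and 1.70. Tumor cells without endothelial transcripts had 0.997 and 1.08. The classes other than the 3 gates needed 3 or more transcripts of their markers (B cells 2 or more). The members, gates and lists were chosen with earlier results of these data known. Genes named were *Ctla2a*, the gate genes, panel genes of the fixed lists and the 5 genes most like it. Splits of T cells by *Cd8a* before another gene, the pair of *Prox1* and *Mmrn1*, and 2 of the 10 alternative settings were added after values were seen. Coding sequences came from the GRCm38 genome with GENCODE M21. Biopython 1.88 aligned the coding sequences. The counting ran under Python 3.11.15 with pandas 2.3.3, scipy 1.17.1 and numpy 2.4.6, and matplotlib 3.10.9 drew the plots.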

Additional observations from a re-analysis of the deposited data

Results flagged for a closer look

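The ratio of *Ctla2a* between T cells with and without *Satb1*, a chromatin organizer of the T cell lineage, ran in opposite directions in the sections, beyond the counting interval of each. In all T cells the RPR2 log2 ratio was -0.18 (-0.30 to -0.06) and the CRPR2 one 0.20 (0.10 to 0.30). For T cells without endothelial transcripts the values were -0.26 (-0.45 to -0.08) and 0.23 (0.09 to 0.37). The difference between the sections was not tested, since each is 1 section. Among T cells with *Cd8a*, a split added after these values were seen, the ratio was negative in both sections (-1.10 and -0.69), and among those without *Cd8a* it was 0.08 (-0.14 to 0.30) and 0.54 (0.37 to 0.70). *Satb1* was found in 45.1% of the T cells without endothelial transcripts in RPR2 and 33.5% in CRPR2, and its level in tumor cells without endothelial transcripts was 798 and 114 CPM.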

How the results depend on the processing

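The 9 ratios were recomputed under 8 planned settings and 2 chosen after seeing the data. None changed the sign of its estimate, but for CRPR2 over RPR2 these intervals spanned 0: in T cells, -0.04 (-0.15 to 0.07) after thinning and -0.02 (-0.10 to 0.06) in transcripts per cell; in T cells without endothelial transcripts, -0.0017 (-0.10 to 0.10) with looser gates, -0.09 (-0.25 to 0.07) after thinning, -0.07 (-0.18 to 0.05) in transcripts per cell and -0.10 (-0.24 to 0.03) with *Tie1* and *Eng* transcripts also absent; in endothelial cells, -0.0086 (-0.02 to 0.01) in transcripts per cell. Of 69 values under the planned settings, 53 stayed within the counting interval of the reported ratio and 16 moved outside it, and of 12 under the added settings, 10 stayed and 2 moved. Values are log2 ratios. With gates 1 transcript looser, CRPR2 over RPR2 was -0.17 in endothelial cells, -0.20 in T cells and -0.0017 in T cells without endothelial transcripts, endothelial over T without endothelial transcripts was 1.52 in RPR2 and 1.34 in CRPR2, and endothelial over tumor in CRPR2 was 6.51. With gates 2 transcripts stricter, CRPR2 over RPR2 in endothelial cells was -0.0871 and endothelial over tumor in CRPR2 was 7.10. CRPR2 over RPR2 in endothelial cells was -0.10 with cells in 1 gate only, -0.0869 after thinning to 50 transcripts and -0.0086 in transcripts per cell. In transcripts per cell, endothelial over T was 1.38 in RPR2 and 1.44 in CRPR2, and endothelial over tumor in CRPR2 was 7.01. With no transcripts of any endothelial check gene, endothelial over tumor was 8.37 in RPR2 and 7.04 in CRPR2, over the 2715 and 17024 tumor cells left, since *Vwf* is abundant in tumor cells. With the 2 added settings (no transcripts of the gate genes and of *Kdr*, *Tie1*, *Clec14a*, *Plvap* and *Vwf*, or of *Tie1* and *Eng*), it was 6.89 and 7.12 in CRPR2. The cause was not tested. No replicate could be left out. No paired analysis was possible because each genotype had 1 section. Depth limits the low levels: the RPR2 tumor value without endothelial transcripts rests on 98 *Ctla2a* transcripts.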
